A study of Mus musculus with 36 samples.

Results

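The ribosomal protein gene promoters of the mouse are described here by their DNase I hypersensitive sites (DHS), the stretches of open chromatin that DNase I cuts. Genes were protein-coding genes of the GENCODE vM21 annotation (mm10) whose symbol is Rpl, Rps or Rplp followed by digits and at most 1 of the letters a, l or x, and a DHS was taken where it lay within 1000 bp of any of their annotated start sites. The rule gave 79 genes, of which 69 had such a promoter DHS, and 76 DHS in all out of the 52788 DHS of the table. Another 11513 DHS lay within 1000 bp of the start site of some other protein-coding gene and are called other promoters below.

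The 36 DNase-seq libraries came from the mouse pre-B line B3, with 3 replicates in each of 12 groups. The Ikaros line carried a retroviral MSCV vector with HA-Ikaros-ERt2-IRES-GFP, in which the zinc finger factor Ikaros is joined to the hormone-binding part of the estrogen receptor, and the Control line carried the same kind of vector with ERt2-IRES-GFP and no Ikaros. Both lines were sampled at 6 times (hours 0, 2, 6, 12, 18 and 24) of treatment with 0.5 µM 4-hydroxytamoxifen, the drug that moves the fusion protein into the nucleus. The labels name the drug for all groups, whereas the study's methods say that 0 h cells received none and were collected apart from the rest, so that time and collection cannot be told apart at 0 h. Transduced cells were sorted for GFP and kept as pools, and the fusion was expressed from the viral vector and not from the Ikaros gene. Replicates 4, 5 and 6 came from batches 11, 12 and 13 in every group. Values are log2 of normalised read density, a level per length of DHS, so levels of different DHS can be set side by side. The cell type was checked by promoter DHS of marker genes: 10 of 12 pre-B genes had such a DHS, against 1 of 6 T cell genes (Tcf7), 1 of 5 erythroid genes (Klf1), 1 of 6 myeloid genes (Lyz2) and 0 of 4 muscle and liver genes.

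Ribosomal proteins are made in near equal amounts, because each sits as a single copy in the small or the large subunit of the ribosome, except for the acidic proteins of the P-stalk that recruit translation factors. Their genes are scattered over the genome and are among the most strongly transcribed genes of growing cells. Their promoters usually lack a canonical TATA box, lie in CpG islands, are bound by general factors such as GABPA, YY1 and SP1, and start transcription at a C within a run of pyrimidines, the 5′ terminal oligopyrimidine (TOP) motif through which mTOR signalling controls translation of the mRNA.

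RefSeq promoter windows (GRCm38.p6) matched 53 of the 69 genes with a promoter DHS. Below are 6 promoters on which the later results turn: Rpl10 had the highest level, Rps4x the lowest level, Rpl27a the largest line difference at 0 h, and Rplp0, Rpl7a and Rps27l the largest changes of line difference from 0 to 24 h among those past the threshold. Each stretch runs from 250 bases before the start site through the 30 bases that begin with it, 5′ to 3′ on the gene's strand, and capitals mark matches to any of 8 motifs on either strand. The motifs were AANATGGC for YY1, CCGGAAG for GABPA and other ETS factors, GGGCGG for SP1, TGGGAA for Ikaros, CACGTG for the E-box of Myc, TATAAA for TATA, TGACGTCA for the cyclic AMP response element (CRE) and the NRF1 motif, given by name only. No 2 matches overlapped in these stretches.
Rpl10: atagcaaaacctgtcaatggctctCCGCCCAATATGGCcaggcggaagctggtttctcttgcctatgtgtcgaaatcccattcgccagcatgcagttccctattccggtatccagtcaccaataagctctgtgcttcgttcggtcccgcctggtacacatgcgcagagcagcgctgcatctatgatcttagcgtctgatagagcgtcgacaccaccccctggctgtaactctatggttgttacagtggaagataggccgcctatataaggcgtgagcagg
Rps4x: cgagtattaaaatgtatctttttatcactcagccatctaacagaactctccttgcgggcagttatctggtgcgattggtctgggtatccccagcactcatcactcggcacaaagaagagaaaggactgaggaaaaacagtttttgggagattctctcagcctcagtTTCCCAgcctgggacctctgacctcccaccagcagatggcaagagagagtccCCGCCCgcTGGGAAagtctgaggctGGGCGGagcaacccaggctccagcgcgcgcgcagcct
Rpl27a: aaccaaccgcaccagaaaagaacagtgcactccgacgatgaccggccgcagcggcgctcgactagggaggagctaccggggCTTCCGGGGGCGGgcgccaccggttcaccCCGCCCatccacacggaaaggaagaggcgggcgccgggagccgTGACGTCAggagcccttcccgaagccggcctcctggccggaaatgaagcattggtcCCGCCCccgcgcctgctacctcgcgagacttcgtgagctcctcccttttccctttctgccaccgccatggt
Rplp0: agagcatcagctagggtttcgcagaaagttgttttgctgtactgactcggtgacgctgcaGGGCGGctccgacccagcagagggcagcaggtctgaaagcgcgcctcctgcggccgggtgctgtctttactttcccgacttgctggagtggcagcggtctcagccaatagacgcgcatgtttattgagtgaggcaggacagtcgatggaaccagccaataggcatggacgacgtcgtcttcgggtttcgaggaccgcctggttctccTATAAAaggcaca
Rpl7a: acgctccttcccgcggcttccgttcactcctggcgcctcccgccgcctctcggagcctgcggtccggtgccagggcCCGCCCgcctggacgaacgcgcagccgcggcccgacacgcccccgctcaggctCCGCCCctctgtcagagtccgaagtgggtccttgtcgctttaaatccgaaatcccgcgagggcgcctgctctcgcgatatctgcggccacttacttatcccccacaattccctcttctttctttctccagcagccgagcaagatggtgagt
Rps27l: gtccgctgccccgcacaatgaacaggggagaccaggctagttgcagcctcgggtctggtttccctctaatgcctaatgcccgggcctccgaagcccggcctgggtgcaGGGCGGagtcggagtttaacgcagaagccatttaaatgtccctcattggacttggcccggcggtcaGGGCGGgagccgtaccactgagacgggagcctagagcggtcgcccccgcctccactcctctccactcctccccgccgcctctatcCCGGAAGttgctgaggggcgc
The stretches lie at chrX:74270566-74270845, + strand for Rpl10, chrX:102189362-102189641, - strand for Rps4x, chr7:109518945-109519224, + strand for Rpl27a, chr5:115559217-115559496, + strand for Rplp0, chr2:26910557-26910836, + strand for Rpl7a and chr9:66945836-66946115, + strand for Rps27l. The Rpl10 stretch held adjoining SP1 and YY1 matches, and that of Rpl27a held a GABPA, a CRE and 3 SP1 matches. The Rps4x stretch held 2 matches to the Ikaros letters and 2 to SP1.

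Motifs were counted over the whole RefSeq window of 300 bases, which ends 50 bases past the start. The GABPA letters were in 20 of 53 windows (37.7%), against 8.86% of all 32851 RefSeq windows and 20.6% of the 10380 windows with a promoter DHS. YY1 letters were in 9 windows (17.0%), against 6.05% of all windows and 9.38% of those with a DHS. A CRE was in 5 windows (9.43%; all windows 1.79%, with a DHS 3.56%). These 3 were thus more frequent at ribosomal protein promoters than in either set of windows. The SP1 letters were in 29 (54.7%; all windows 35.7%, with a DHS 66.0%), and the Ikaros letters in 11 (20.8%; all windows 25.6%, with a DHS 21.9%). TATA was in 5 (9.43%; all windows 13.6%, with a DHS 5.99%), NRF1 in 4 (7.55%; all windows 4.60%, with a DHS 11.7%) and the E-box in 4 (7.55%; all windows 7.15%, with a DHS 10.9%). The shares of SP1, TATA, NRF1 and the E-box stood between those of the sets of windows, and the Ikaros letters were no more frequent than in either. These shares are counts of letters and were not tested.

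The base at the RefSeq start site was a C followed by at least 4 further pyrimidines in 10 of 53 genes (18.9%), whether or not the run reached upstream of it, against 2.51% of all windows and 2.35% of those with a promoter DHS. Such a C lay within 5 bases of the start on either side in 24 genes (45.3%), against 18.3% and 19.7%. Shown are the 9 genes whose run, counted from such a C, held 10 or more bases. Each stretch goes from 30 bases before the start site through the 20 bases that begin with it, and capitals mark the run so counted. Pyrimidines directly before the capitals, as in Rpl7a, Rpl35, Rpl14 and Rpl28, were not counted. The counted runs began from 5 bases before the RefSeq start (Rpl35, Rpl7a), which is the limit of the search, to 1 base after it (Rpl18). Where a run began before the start, its first bases lie outside the annotated mRNA.
Rpl27a: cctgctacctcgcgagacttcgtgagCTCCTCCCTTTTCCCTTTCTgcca
Rpl35: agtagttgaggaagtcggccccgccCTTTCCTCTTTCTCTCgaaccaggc
Rps10: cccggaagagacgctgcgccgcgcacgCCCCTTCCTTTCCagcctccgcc
Rpl7a: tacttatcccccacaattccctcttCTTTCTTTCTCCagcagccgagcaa
Rps18: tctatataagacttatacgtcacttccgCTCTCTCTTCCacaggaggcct
Rpl14: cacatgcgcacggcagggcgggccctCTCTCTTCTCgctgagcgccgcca
Rpl18: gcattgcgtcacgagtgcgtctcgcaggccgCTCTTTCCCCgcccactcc
Rpl28: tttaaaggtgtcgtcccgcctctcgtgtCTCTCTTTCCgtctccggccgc
Rps6: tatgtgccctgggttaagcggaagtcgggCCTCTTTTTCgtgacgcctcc
As counted, the runs of Rpl27a, Rpl35 and Rps10 were the longest, with 20, 16 and 13 bases. With the uncounted pyrimidines before it, the run of Rpl7a is longer than that of Rpl27a, and that of Rpl14 longer than that of Rps10. In GRCm38.p6 the stretches lie at chr7:109519165-109519214 on the + strand (Rpl27a), chr2:39005112-39005161 on the - strand (Rpl35), chr17:27635225-27635274 on the - strand (Rps10), chr2:26910777-26910826 on the + strand (Rpl7a), chr17:33955646-33955695 on the - strand (Rps18), chr9:120571487-120571536 on the + strand (Rpl14), chr7:45718041-45718090 on the + strand (Rpl18), chr7:4792935-4792984 on the + strand (Rpl28) and chr4:86857348-86857397 on the - strand (Rps6).

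Most ribosomal protein promoters carried a single broad DHS over the start site. Of the 69 genes, 64 had 1 promoter DHS, 3 had 2 (Rpl18 and Rps14 among them) and 2 had 3 (Rpl7, Rpl38, the latter needed for translation of Hox mRNAs). A start site lay inside 69 of the 76 DHS, and their centres lay from 244 bp upstream to 249 bp downstream of it with a median of 29 bp upstream. The median width was 550 bp, against 525 bp for other promoters, and the median GC content was 58.5%, against 60.6%. The 6 DHS of at most 200 bp, among them those of Rpl7, Rpl38 and Rps14, contained no start site. The DHS lay on 19 chromosomes, with 12 on chromosome 7 and 4 on X, and 15 of them were also within 1000 bp of the start of another protein-coding gene (Med22 beside Rpl7a, Vps52 beside Rps18, Rab13 beside Rps27), to which their value belongs as well.

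**Figure D1:**
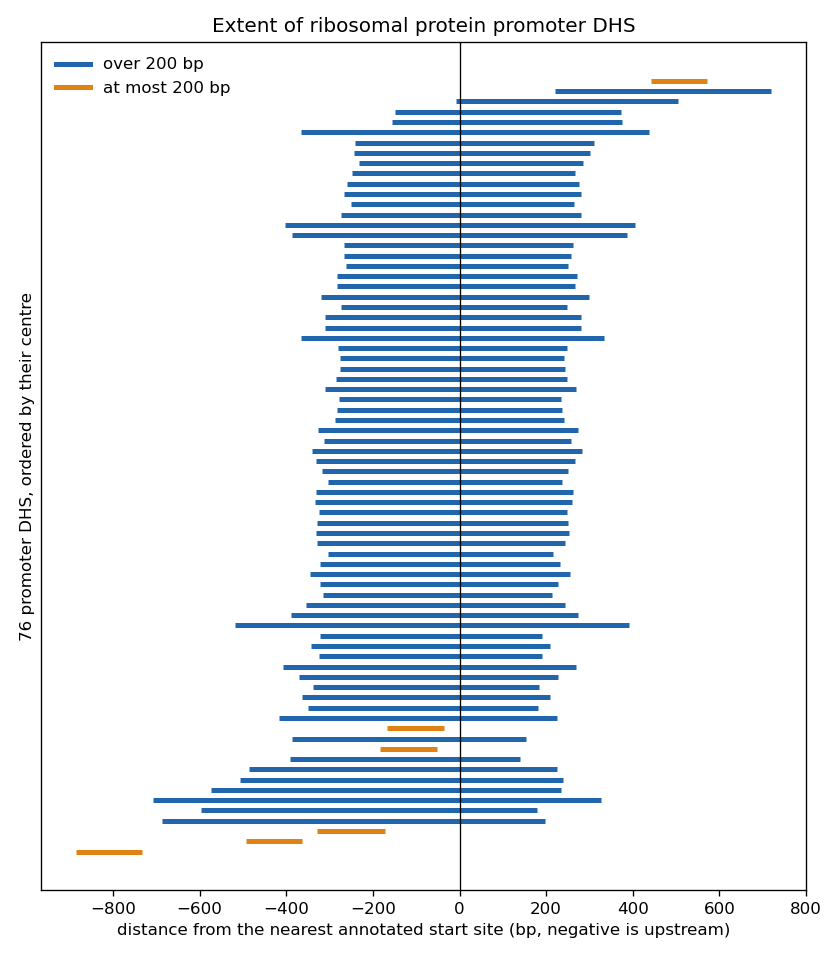
Each bar is 1 of the 76 ribosomal protein promoter DHS, drawn by its distance in bp from the nearest annotated start site (negative is upstream) and ordered by its centre. Blue bars are wider than 200 bp and mostly span the start site, and the 6 orange bars of at most 200 bp lie to either side of it.

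The 10 genes with no DHS within 1000 bp included Rpl3, Rpl13a, Rpl15, Rps21, Rps29, Rpl3l, Rpl10l and Rpl39l. The last 3 are paralogs used in muscle (Rpl3l) and in testis (Rpl10l, Rpl39l), and the nearest DHS lay 3086 bp, 276317 bp and 96585 bp from their start sites. The other named genes encode core proteins of the ribosome, Rpl13a being known also for the translational control of inflammatory mRNAs. Their nearest DHS lay from 2533 bp (Rpl3) to 13655 bp (Rpl15) away. The table was filtered by the authors, so a DHS missing from it was not shown to be closed chromatin.

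Ribosomal protein promoters were more accessible than most promoters. Their mean level over 36 libraries had a median of 5.22 on the log2 scale (range 3.86 to 6.18), against 4.66 for other promoters, and 66 of 76 lay above that median. Above the 75th percentile of other promoters were 44, above the 90th 16 and below the 25th 2. The median of the small subunit DHS was 5.26 (n = 27), that of the large subunit 5.19 (n = 46) and that of the P-stalk 5.46 (n = 3), and their ranges overlapped. In every library the median of the ribosomal protein promoters exceeded that of other promoters, by 0.39 (Control 0 h replicate 6) to 0.66 (Control 6 h replicate 4) with a median of 0.55. No test was made of this difference in level. With DHS of at most 200 bp left out of both sets, the medians were 5.25 and 4.79.

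**Figure D2:**
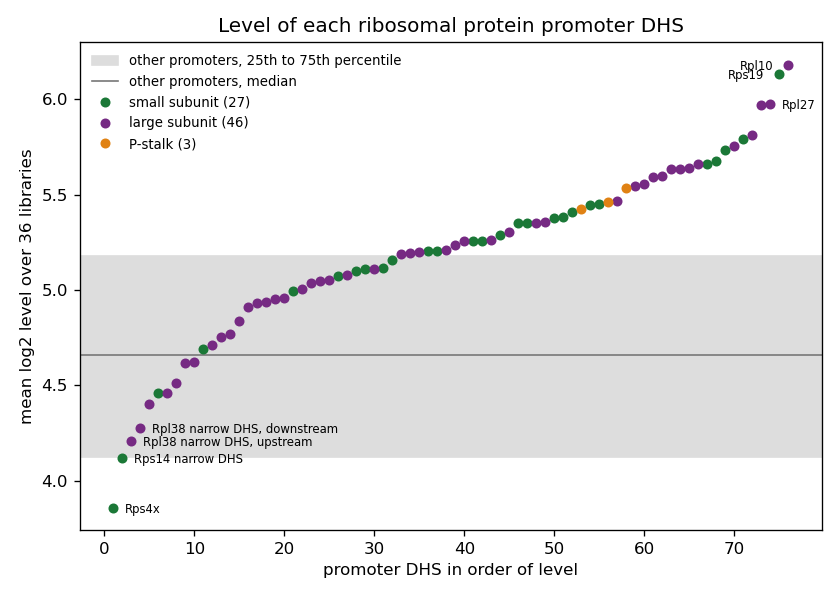
Mean log2 level over 36 libraries of each of the 76 promoter DHS in order of level, coloured by the subunit of the protein, with the 3 highest and 4 lowest named. The grey band and line give the quartiles and the median (4.66) of 11513 other promoter DHS, and 66 of the 76 points lie above that line.

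The highest levels were those of Rpl10 (6.18), whose protein is added late and lets the subunits join, Rps19 (6.13), the gene most often mutated in Diamond-Blackfan anaemia, and Rpl27 (5.98). At the low end stood Rps4x (3.86), an X-linked small subunit gene, followed by narrow DHS at an alternative start of Rps14 (4.12) and on both sides of the Rpl38 start (4.21 upstream, 4.27 downstream). Rpl10 and Rps4x are both on X, at chrX:74270214-74270992 and chrX:102189085-102189636, so the X chromosome held both ends of the order. The gap between Rpl10 and Rps19 is smaller than the replicate spread of either. Rps4x stood lower than every other wide DHS in the set.

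Levels of the 76 DHS moved little between groups. The range of the 12 group means had a median of 0.52, against 0.65 for other promoters and 0.80 for all DHS, and 70 of 76 stayed within 1. Replicate SDs, pooled over 2 to 24 h, had a median of 0.16 in Ikaros and 0.23 in Control (other promoters 0.19 and 0.28). Among DHS over 200 bp the range of group means had a median of 0.50 for ribosomal protein genes and 0.60 for others. The largest range was 1.91, at the narrow upstream DHS of Rpl38.

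At 0 h the promoters were more accessible in Ikaros than in Control. In pooled cells, more cells with an open promoter and a more open promoter in each cell cannot be told apart. The difference was positive for 71 of 76 DHS with a median of 0.38, and other promoters had the same median of 0.38 while the median of all DHS was -0.06. Limma (adjusted over all 52788 DHS, threshold 0.05) called 26 of 76 higher and 1 lower, which is 35.5% of the DHS where 12.9% of all DHS were called at 0 h, 7.81% higher and 5.04% lower. Among other promoters 29.0% were called, so the share at ribosomal protein genes has to be read against that of other promoters. All Ikaros values lay above all Control values for 38 DHS, against 12.4% of all DHS and 37.1% of other promoters. By subunit, 11 of 27 small subunit DHS were called higher, 14 of 46 of the large subunit and 1 of 3 of the P-stalk.

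**Figure D3:**
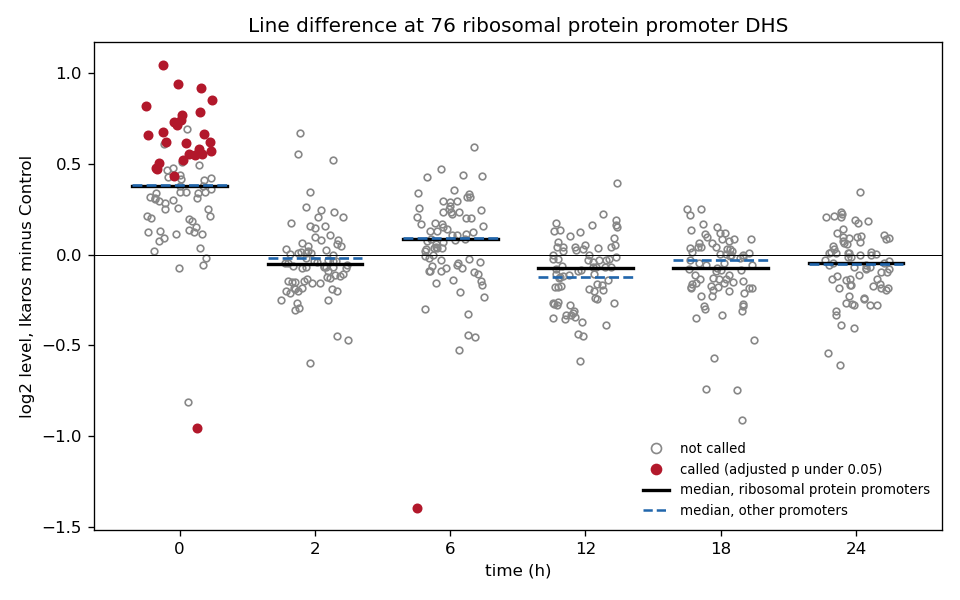
Difference in log2 level (Ikaros minus Control) of the 76 promoter DHS at each of 6 times, with filled points for DHS that limma called, a black bar for their median and a dashed blue bar for the median of other promoters. At 0 h both medians lie at 0.38, and from 2 h on both lie near 0 with at most 1 call.

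The 5 largest differences past the threshold were at Rpl27a, Rps4x, Rps10, Rpl31 and Rps20. Rpl27a (chr7:109518816-109519409), a large subunit gene, had 5.26, 5.82 and 4.79 in the Control libraries and 6.35, 6.40 and 6.26 in Ikaros, a difference of 1.05 ± 0.19 (SE, limma adjusted p = 0.00103, n = 3). Its Ikaros values hardly differed among themselves, and the groups did not overlap. For Rps4x the Control values were 3.39, 4.08 and 3.20 and the Ikaros values 4.68, 4.34 and 4.46 (difference 0.94 ± 0.22, limma adjusted p = 0.00594). Rps10, in the head of the small subunit, read 3.93, 4.24 and 3.66 in Control and 5.21, 4.42 and 4.96 in Ikaros (0.92 ± 0.25, limma adjusted p = 0.0154). In both genes the lowest Ikaros library was above the highest Control library, by a small margin in Rps10.

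Rpl31, whose protein lies near the exit of the nascent chain, had 4.59, 4.94 and 4.31 in Control and 5.62, 5.42 and 5.36 in Ikaros (0.85 ± 0.19, limma adjusted p = 0.00481). Rps20, also of the small subunit head, had 4.36, 5.10 and 4.68 in Control and 5.52, 5.26 and 5.82 in Ikaros (0.82 ± 0.19, limma adjusted p = 0.00512). Neither pair of groups overlapped.

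Batches did not contribute alike at 0 h. The median difference over the 76 DHS was 0.29 between the replicates numbered 4, 0.19 between those numbered 5 and 0.71 between those numbered 6, positive for 59, 56 and 74 of 76 DHS. The median level of the promoters in Control 0 h was 5.10, 5.13 and 4.79 for replicates 4, 5 and 6, and in Ikaros 0 h 5.38, 5.38 and 5.57, so that the libraries of replicate 6 stood apart in opposite directions. Without replicate 6 in any group 2 DHS were called, and without Control 0 h replicate 6 alone 8 of 76. Without replicate 4 in any group 10 were called, and 17 without replicate 5 or without Control 0 h replicate 4 alone. After quantile normalisation 8 of 76 were called with a median of 0.18, whereas 19.2% of other promoters were called with a median of 0.27, so the like medians of the deposited values did not hold there. With the smooth trends on level, GC content and width taken out 3 of 76 were called with a median of 0.11, against 4.04% of other promoters and a median of 0.05. Of all 52788 DHS, 4406 were called after quantile normalisation and 1508 with the trends taken out. With only the 2 groups of 0 h in the fit 0 passed, and 28 had an unadjusted p under 0.05. The shares of all DHS in that fit and with libraries left out are not given here. The part of level, GC content and library in the difference was not tested further.

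**Figure D4:**
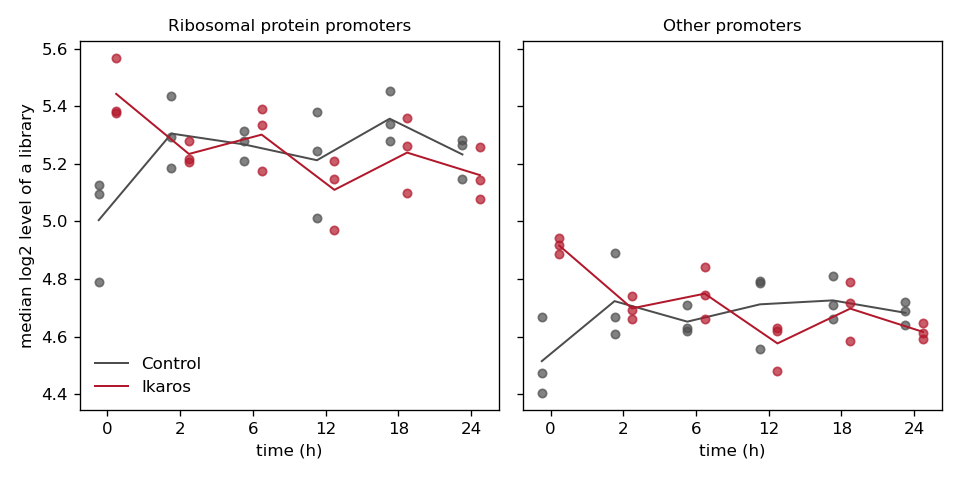
Median log2 level of each of 36 libraries over the 76 ribosomal protein promoter DHS (left) and over 11513 other promoter DHS (right), with points for the 3 replicates and lines through the group means. In both panels the Ikaros libraries lie above the Control libraries at 0 h and the points of the lines overlap from 2 h on, and Control 0 h replicate 6 is the lowest point on the left at 4.79.

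Genes of the set with known roles outside the ribosome were called in part at 0 h. The list of 13 such genes had 13 DHS in 12 of them (none in Rpl13a), with 5 called higher and 0 lower, and a median difference of 0.34. Beside this, 26 of 76 in the whole set, 3256 of 11513 other promoters and 7.81% of all DHS were called higher. No difference between this list and the rest was tested. Rpl5, whose protein carries 5S rRNA and binds Mdm2 together with that of Rpl11, was called (Control 5.27, 4.67 and 5.05, Ikaros 5.67, 5.53 and 5.95, difference 0.72 ± 0.16, limma adjusted p = 0.00536). Rpl11 was not called, with 0.31 ± 0.15 (limma adjusted p = 0.180). Rpl22, an RNA-binding protein needed in T cell development, differed by 0.58 ± 0.15 (limma adjusted p = 0.0121). Rps27l, a paralog of Rps27 that p53 induces, had 4.73, 4.96 and 4.71 in Control and 5.67, 5.37 and 5.72 in Ikaros (0.79 ± 0.18, limma adjusted p = 0.0062), whereas Rps27 differed by 0.13 ± 0.16 (limma adjusted p = 0.644). The Ikaros and Control values were apart for Rpl5, Rpl22 and Rps27l and overlapped for Rps27.

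Rps6, the substrate of S6 kinases, was nearly level, with 5.45, 5.80 and 5.20 in Control and 5.40, 5.36 and 5.64 in Ikaros (-0.02 ± 0.14, limma adjusted p = 0.947), and its group means stayed within 0.27 of each other over the whole course. Rps19 differed by 0.26 ± 0.20 (limma adjusted p = 0.428), and Rps27a, which encodes ubiquitin fused to a ribosomal protein, by 0.20 ± 0.17 (limma adjusted p = 0.466). Rps14, a small subunit gene linked to a blood disorder with deletion of human chromosome arm 5q, differed by 0.03 ± 0.18 at its wide DHS and by 0.29 ± 0.30 at the narrow one. The limma adjusted p of these last DHS was 0.927 and 0.556. Of the P-stalk genes Rplp2 was called (0.48 ± 0.15, limma adjusted p = 0.0362), and Rplp1 (0.31 ± 0.14, adjusted p = 0.143) and Rplp0 (0.38 ± 0.19, adjusted p = 0.197, both limma) were not. The sign of Rpl11, Rplp1, the wide DHS of Rps14, Rps19, Rps27 and Rps27a turned in at least 1 of the rescaled tables.

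From 2 h on the lines were close at these promoters. The median difference over the 76 DHS at 2, 6, 12, 18 and 24 h was -0.05, 0.08, -0.07, -0.08 and -0.05, and all but the value at 6 h changed sign under quantile normalisation (0.12, 0.21, 0.07, 0.08 and 0.08 in the same order) and after removal of trends (0.11, 0.16, 0.13, 0.08 and 0.16). Limma called 0 of 76 at every time but 6 h, where it called 1 DHS lower. Of all DHS 0.195%, 0.578%, 1.31%, 0.699% and 1.33% were called at these times. An unadjusted p under 0.05 was found for 4, 8, 5, 5 and 3 of the 76, and for 5294, 7263, 8317, 6906 and 7740 of all 52788 DHS. Ikaros and Control values were fully apart for 8, 16, 5, 13 and 6 of the 76 DHS, where 13.6%, 22%, 22.7%, 23.2% and 25.5% of all DHS were apart. At 24 h the 6 were Rpl31 (Ikaros above) and Rpl11, Rpl13, Rplp0, Rpl36a and the Rpl18 DHS over the RefSeq start (Ikaros below), and at each of the 5 times the share was below that of all DHS.

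The call at 6 h was the narrow DHS upstream of Rpl38 (chr11:114668031-114668161), with 4.77, 5.92 and 4.94 in Control and 4.14, 3.20 and 4.10 in Ikaros, a difference of -1.40 ± 0.29 (limma adjusted p = 0.0209). It has the largest range of group means of the set, and its neighbour over the Rpl38 start had a range of 0.49. Without replicate 5 or 6, or without Control 6 h replicate 5, Ikaros 6 h replicate 5 or Ikaros 6 h replicate 6 alone, 0 DHS were called at 6 h. From 12 h on Rplp0 had the smallest p of the set. Rplp0, the P-stalk protein that anchors the others, had 5.79, 6.12 and 6.32 in Control and 5.59, 5.21 and 5.21 in Ikaros at 18 h, a difference of -0.74 ± 0.19 that missed the threshold (limma adjusted p = 0.0633). The 12 h difference was -0.58 ± 0.19 (limma adjusted p = 0.120), and the 24 h difference was -0.61 ± 0.19 (adjusted p = 0.111).

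Other DHS with the smallest p at these times were further from the threshold. They were Rpl14 (0.55 ± 0.22, limma adjusted p = 0.363), Rps4x (0.52 ± 0.22, 0.390) and the narrow DHS of Rpl7 nearest to its start (-0.60 ± 0.26, 0.422) at 2 h. At 12 h they were Rpl7a (-0.44 ± 0.17, limma adjusted p = 0.186) and Rpl11 (-0.35 ± 0.15, 0.243), both higher in Control where the 2 h values of Rpl14 and Rps4x were higher in Ikaros. At 18 h Rpl27 (-0.47 ± 0.17, limma adjusted p = 0.220) and the upstream Rpl38 DHS (-0.74 ± 0.29, 0.245) followed. At 24 h Rpl27 (-0.39 ± 0.17, limma adjusted p = 0.283) and Rpl13 (-0.33 ± 0.16, 0.334) did. Rpl27 and Rplp0 were thus near the top of the order at 18 h and at 24 h, both lower in Ikaros.

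The line difference was smaller at 24 h than at 0 h for 67 of 76 DHS. The median change was -0.46, as for other promoters (-0.47), while the median of all DHS was 0.12. This median of all DHS was -0.04 after quantile normalisation and -0.01 after removal of trends, where the median change at ribosomal protein promoters was -0.11 and 0.04 and that of other promoters -0.31 and -0.01. Limma called 9 of 76, all in the direction of a lower difference, which is 11.8%, where 6.26% of all DHS were called (3.4% lower) and 11.4% of other promoters. Of the 9 DHS, 6 were also among the 27 called at 0 h, a comparison that shares the 0 h libraries. Of the large subunit 7 of 46 were called, of the small subunit 1 of 27 and of the P-stalk 1 of 3.

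Rplp0 (chr5:115559116-115559648) had the largest change among the calls, with Control 5.61, 5.30 and 4.80 and Ikaros 5.69, 5.49 and 5.68 at 0 h, and Control 5.70, 5.67 and 6.11 and Ikaros 5.37, 5.27 and 5.02 at 24 h. Its difference turned from 0.38 to -0.61, a change of -0.99 ± 0.27 (limma adjusted p = 0.0328). Rpl7a (chr2:26910443-26910992), whose start lies close to that of Med22, had 5.35, 5.34 and 4.79 in Control and 5.78, 5.96 and 5.77 in Ikaros at 0 h, and 5.83, 5.46 and 5.69 against 5.47, 5.37 and 5.30 at 24 h. Its change was -0.96 ± 0.24 (limma adjusted p = 0.0211), and the 24 h values overlapped. Rps27l (chr9:66945776-66946354) had 5.17, 4.95 and 5.33 in Control and 4.90, 5.04 and 5.03 in Ikaros at 24 h, beside its values at 0 h above, a change of -0.95 ± 0.26 (limma adjusted p = 0.0311). In all 3 genes both lines contributed: Control was higher at 24 h than at 0 h in its group mean and Ikaros was lower.

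Rpl37 changed by -0.93 ± 0.27 (limma adjusted p = 0.0365), with 5.29, 5.50 and 4.73 in Control and 5.98, 5.80 and 5.97 in Ikaros at 0 h, and 5.61, 5.66 and 5.76 against 5.50, 5.63 and 5.35 at 24 h. Rpl5 changed by -0.81 ± 0.23 (limma adjusted p = 0.0367), and its 24 h values were 5.54, 5.65 and 5.50 in Control and 5.50, 5.56 and 5.35 in Ikaros. The values of both genes were apart at 0 h and overlapped at 24 h. Rpl13 (-0.80 ± 0.23, limma adjusted p = 0.0366), Rpl23 (-0.76 ± 0.22, adjusted p = 0.0369), Rpl26 (-0.75 ± 0.23, adjusted p = 0.0482) and the Rpl18 DHS over the RefSeq start (-0.70 ± 0.20, adjusted p = 0.0366, all limma) made up the rest. Rpl23 and Rpl26 encode proteins that also act on the p53 pathway. At 24 h Rpl13 had 5.34, 5.31 and 5.25 in Control and 4.82, 5.09 and 4.97 in Ikaros, so that its groups did not overlap.

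**Figure D5:**
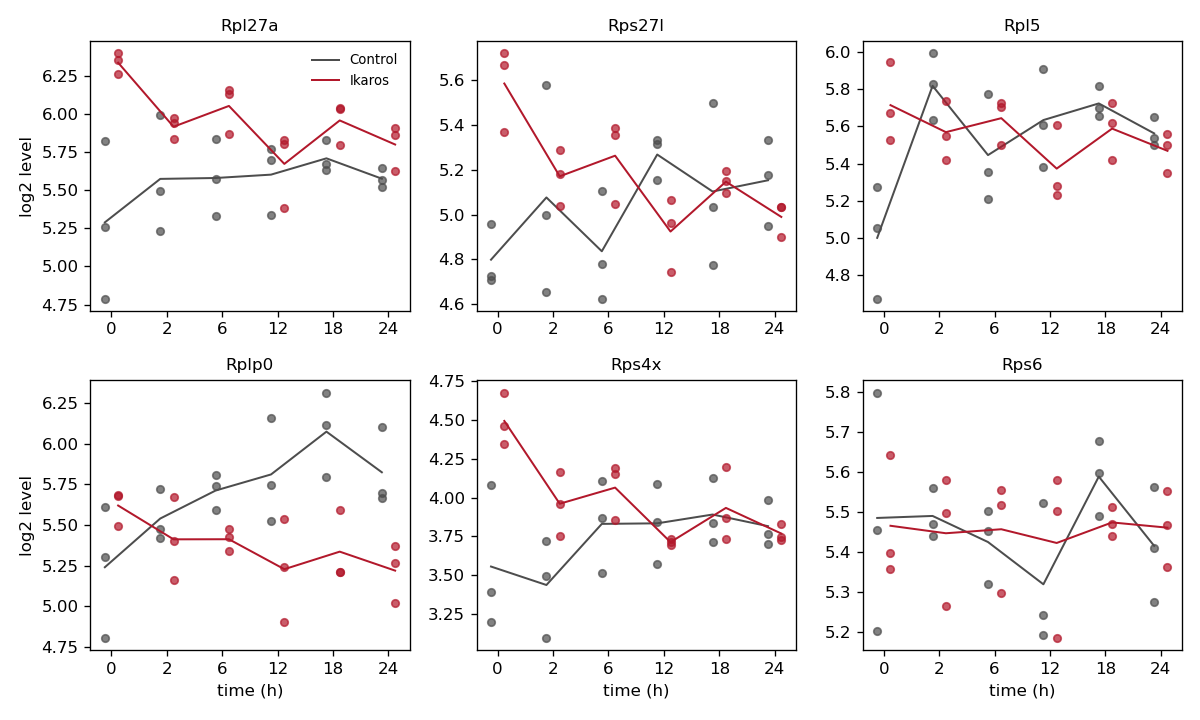
Log2 level of 6 promoter DHS in each library by time, with points for the 3 replicates of Control (grey) and Ikaros (red) and lines through the group means. The vertical scales differ between panels, and the lines are apart at 0 h for Rpl27a, Rps27l, Rpl5 and Rps4x, cross for Rplp0 and overlap throughout for Rps6.

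These 9 calls depended on the fit. Quantile normalisation left 1 DHS called, which was none of the 9 (4.49% of other promoters were called), and removal of trends left 0 (0.382%). Of all 52788 DHS, 1345 were called after quantile normalisation and 179 after removal of trends. With only the groups of the contrast in the fit 0 passed, and without the intensity trend 4 passed, of which 3 were among the 9 (Rpl7a, Rplp0, Rps27l). Leaving out the single library Control 0 h replicate 6 or Control 24 h replicate 4 gave 0 calls, as did leaving replicate 5 or replicate 6 out of every group. Leaving replicate 4 out of every group gave 3. There were 17 calls when Control 0 h replicate 5 was left out and 10 when Ikaros 0 h replicate 5 was. Omission of Control 0 h replicate 4 or of Control 24 h replicate 5 gave 6 calls. Leaving out Control 24 h replicate 6, Ikaros 0 h replicate 4 or 6 or any 1 of the Ikaros 24 h replicates gave 1 to 4. With the replicate number as a block in the fit, 9 were called, of which 8 were the same DHS, and at 0 h the same 27. From 2 to 24 h, with no 0 h library in the comparison, the median change was -0.02 and limma called 0 of 76 (0% of all DHS). An unadjusted p under 0.05 was found for 1 DHS of the set, the narrow DHS of Rps14 (-1.07), and for 1503 of all 52788 DHS.

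No ribosomal protein promoter passed the limma F-test for change over time in either line, where 2.29% of all DHS passed in Ikaros and 0.148% in Control. In Ikaros 13 of 76 had an unadjusted p under 0.05, beside 6693 of all 52788 DHS, and the smallest adjusted p was 0.0530. Rpl18, at the DHS over the RefSeq start (limma adjusted p = 0.0889), and Rpl26 (0.109) were also near the top of the order. In Control 12 of 76 had an unadjusted p under 0.05, beside 6647 of all 52788 DHS. Rpl5 (limma adjusted p = 0.0954), Rpl10a (0.113) and Rplp0 (0.198) came first. With only the 18 libraries of the line in the fit, 6 DHS passed in Ikaros and 0 in Control. The shares of all DHS in these fits are not given here, and 2.29% and 0.148% belong to the fit of 36 libraries.

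The other genes of the protein synthesis machinery also had positive median differences at 0 h. Of 78 genes for mitochondrial ribosomal proteins, which make up the separate ribosome of that organelle, 74 had 82 promoter DHS with a median level of 4.90 and a median difference at 0 h of 0.38, of which 23 were called higher and 0 lower. Of the 38 genes of the translation factor list 36 had 46 DHS (median level 5.26, difference 0.46), with 19 called higher. That list also holds other genes, among them Hnrnpa1, Nap1l1, Naca and Btf3. Of 56 ribosome biogenesis genes 54 had 65 DHS (median level 5.20, difference 0.37), with 18 called higher. Of 7 snoRNA host genes 6 had 7 DHS (5.24 and 0.23), with 3 called higher. The change from 0 to 24 h was called lower in 10 mitochondrial, 9 translation factor, 6 biogenesis and 1 host gene DHS, and higher in 0 of each. Beside these counts, 3256 of 11513 other promoters and 7.81% of all DHS were called higher at 0 h. For the change 1283 of 11513 other promoters and 3.4% of all DHS were called lower. At cytoplasmic ribosomal protein genes 26 of 76 were called higher at 0 h and 9 of 76 lower for the change. No difference between the groups was tested.

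After 0 h the calls in these groups were few. At 6 h the promoters of Polr1d, a subunit of RNA polymerases I and III (0.79 ± 0.18, limma adjusted p = 0.0353), and of the translation initiation factor gene Eif2s3x (0.90 ± 0.19, adjusted p = 0.0246) were called higher in Ikaros. Mrps18c, of the mitochondrial small subunit, was called lower in Ikaros at 12 h with -0.60 ± 0.16 (limma adjusted p = 0.0476) and again at 24 h with -0.60 ± 0.16 (adjusted p = 0.0469). By promoter letters, the 20 ribosomal protein genes with a GABPA match had a median level of 5.21 and a median difference at 0 h of 0.48, and the 33 without had 5.35 and 0.42. The 11 genes with the Ikaros letters had a median difference of 0.34 at 0 h and the 42 without 0.48. Other letters had gaps of like size or larger. With and without them the medians were 0.26 and 0.48 for YY1, 0.68 and 0.42 for the E-box, and 0.50 and 0.33 for SP1. For TATA, NRF1 and CRE they lay closer together. None of these gaps was tested. The ranges of level with and without these letters overlapped.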

How the data were processed

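DNase-seq values of 52788 DHS in 36 libraries came from 1 deposited table. Per the study's methods, the authors aligned reads to mm10 with Bowtie2, called peaks per replicate with HOMER, merged them, counted reads per DHS, removed low DHS, scaled them to RPKM, applied TMM factors and took out structured noise with ARSyN. What they deposited are log2 values of the result, the base being inferred from the values. No counts entered here, so depth is unknown and precision is set by the number of libraries. ARSyN models the groups: the 12 group means span 6 dimensions of 11 possible and the residuals 23 of 24, so groups are not independent and p-values do not cover that step.

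Start sites came from the basic GENCODE vM21 annotation. Whether starts of DHS count from 0 or 1 is not given in the sources used here. Tests were two-sided in limma 3.58.1 (R 4.3.3; 12 group means fitted to all 36 libraries, eBayes with an intensity trend, Benjamini-Hochberg adjustment over all DHS, threshold 0.05), and the fit was tested on simulated data. Replicates were repeats of the time course in batches per the study's methods. Replicate numbers mark these batches in the labels and so pair the libraries. Deviations from the group means had a median correlation of -0.01 between libraries of the same number (198 pairs) and 0.01 between those of different numbers (396 pairs).

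Alternatives were the replicate block, quantile normalisation, removal of smooth trends with level, GC content and width, no intensity trend, omission of DHS below the median level, the contrast's groups only, omission of libraries, a 500 bp window, 1 DHS a gene and, chosen after seeing the data, the full annotation. Named were the 4 highest and 4 lowest levels, the 5 largest calls in each direction (all where there were at most 10), the 3 smallest p-values where nothing was called, genes with no or several promoter DHS, and genes with roles outside the ribosome, paralogs and the P-stalk. Some items are not reported here. The genes and all lists were chosen with earlier results of these data known.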

Additional observations from a re-analysis of the deposited data

Results flagged for a closer look

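The change of the line difference from 0 to 24 h passed the limma test at 9 of 76 promoter DHS (11.8%), where 11.4% of other promoters and 6.26% of all DHS passed. After quantile normalisation or removal of trends 0 of these 9 passed. The changes on the log2 scale were -0.99 at Rplp0, -0.96 at Rpl7a, -0.95 at Rps27l, -0.93 at Rpl37, -0.81 at Rpl5, -0.80 at Rpl13, -0.76 at Rpl23, -0.75 at Rpl26 and -0.70 at the Rpl18 DHS over the RefSeq start. Other promoters had a median change of -0.47. The same comparison from 2 to 24 h, which holds no 0 h library, called 0 of 76 in limma, with 1 at an unadjusted p under 0.05 (1503 of all 52788 DHS). The 0 h libraries were collected apart from the others, and the part of that collection in these values was not tested.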

How the results depend on the processing

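The promoter level stayed within the spread between replicates under all 8 alternatives, and the counts at 2 h, 18 h and 24 h and for the change from 2 to 24 h stayed at 0 under all of theirs. The count at 0 h (27) was 8 after quantile normalisation, 3 after removal of trends and 0 with only the groups of the contrast, and it ranged from 2 to 30 when libraries were left out. The count for the change from 0 to 24 h (9) was 1 after quantile normalisation, 0 after removal of trends, 4 without the intensity trend and 0 with only the groups of the contrast, and ranged from 0 to 17 when libraries were left out. At 6 h (1) it was 2 after quantile normalisation and 0 with only the groups of the contrast, and ranged from 0 to 1 without single libraries, as it did at 12 h, where leaving out Control 12 h replicate 5 gave 1. For change over time in Ikaros (0) it was 1 after quantile normalisation, 1 with low DHS left out and 6 with only the line's libraries, and ranged from 0 to 1, with 1 without Ikaros 0 h replicate 6, Ikaros 2 h replicate 5 or Ikaros 6 h replicate 4. In Control (0) it ranged from 0 to 3, with 3 without replicate 4 and 1 without Control 0 h or 6 h replicate 4. The cause of these moves was not tested. Shares of all DHS with libraries left out or with only some groups in the fit are not given here. A fit of the contrast's groups alone has fewer libraries to estimate the spread, and the part of this in the counts was not tested either.

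With the replicate number as a block the counts were 27 at 0 h and 9 for the change from 0 to 24 h, of which 8 were the same DHS (Rpl26 was lost), and the block changed no other call of a named DHS. A 500 bp window and the full annotation left every count within 1.5 times.

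Single differences changed sign as follows. After removal of trends the change at the Rpl18 DHS was 0.058, and at 0 h Rpl11 was at -0.013, Rplp1 at -0.11, Rps27a at -0.056, Rps19 at -0.29 and the wide DHS of Rps14 at -0.33. After quantile normalisation Rps19 was at -0.062, Rps27 at -0.11 and the wide DHS of Rps14 at -0.18. When libraries were left out, Rps6 ranged from -0.25 to 0.19 at 0 h, the narrow DHS of Rps14 from -0.020 to 0.71, its wide DHS from -0.36 to 0.29 and Rps27 from -0.085 to 0.41. Over 50 named differences and F-tests and 891 alternatives, 672 kept their direction and side of the threshold, 189 lost the call, 11 gained one and 19 changed sign. The 672 include results not called in the main fit, for which staying uncalled counted as kept. Only results called in the main fit could lose a call, so the 672 do not measure how firm the calls were.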

Other observations

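Of the 15 DHS that lie within 1000 bp of the start of another protein-coding gene, 6 were called higher at 0 h and 2 were called for the change from 0 to 24 h, and the median level was 5.23. For the 61 DHS with no such neighbour, 20 were called higher and 1 lower at 0 h, 7 were called for the change, and the median level was 5.21. Called higher at 0 h were 3256 of 11513 other promoters and 7.81% of all DHS. For the change 11.4% of other promoters and 6.26% of all DHS were called. No difference between DHS with and without such a neighbour was tested. A snoRNA start lay within 1000 bp of 15 of the 76 DHS.

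At 18 h the Ikaros values lay wholly below the Control values for 12 of the 76 promoter DHS and wholly above for Rpl8. Among other promoters 13.8% lay wholly below and 6.28% wholly above, and 23.2% of all DHS were apart in either direction. The 12 included all 3 DHS of Rpl38, which share their neighbourhood. Limma called 0 of the 76 at this time, with 5 at an unadjusted p under 0.05, beside 6906 of all 52788 DHS.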
